A study of Sus scrofa with 3 samples.

Results

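MicroRNA miR-9 was followed in the psoas major, a loin muscle, of growing pigs. Its rows were found by name: every name with the number 9 under any species prefix was taken, with either arm and at every hairpin. This gave 6 of the 1162 known miRNA names in the 3 libraries, listed on 8 rows at 63 d, 12 rows at 98 d and 9 rows at 161 d. The names were the porcine ssc-miR-9, which is the 5p arm, the 3p names bta-miR-9-3p, mmu-miR-9-3p and mdo-miR-9a-3p, the platypus name oan-miR-9-3p, and rno-miR-9b-5p. No porcine name was given to the 3p arm. The members were selected on their reads in these same libraries, that is, with their level at each age known, so the levels below are descriptions.

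The animals were fattening pigs, which the methods describe as castrated males of a Landrace, Large White and Duroc cross. Ages were 63 d, 98 d and 161 d, without a treatment, and 1 small RNA library was made at each age from the combined RNA of several pigs. Per the methods, the feed was changed with body weight, so age and feed stage cannot be told apart. There were no replicates, so variation between pigs of an age was not measured, no test between ages was made, and each interval below is a 95% exact interval that covers counting error only. PCR reads without molecular identifiers are not independent molecules. Each library also came from a whole piece of muscle, in which fewer cells of a type and less RNA per cell cannot be told apart.

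A miRNA is cut from a hairpin-shaped precursor with a 5p and a 3p arm, and bases 2 to 8 of the mature strand, the seed, do most of the pairing with target mRNAs. miR-9 is known above all from the nervous system, where it acts on neural progenitors and on the formation of neurons. Both of its arms are known to be active there, and they act on different members of the REST complex, a repressor of neuronal genes. It is not one of the miRNAs that define skeletal muscle, such as miR-1, miR-133a and miR-206.

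The mature forms are shown first because the arms and the 2 kinds of 3p strand differ in their seeds. They are copied from the deposited files, in DNA letters, 5′ to 3′, with the seed in capitals.
ssc-miR-9: tCTTTGGTtatctagctgtatg
miR-9-3p: aTAAAGCTagataaccgaaagt
oan-miR-9-3p: tAAAGCTAgagaaccgaatgt
The 3 names bta-miR-9-3p, mmu-miR-9-3p and mdo-miR-9a-3p carried 1 and the same 22-base sequence, here called miR-9-3p. The seeds of ssc-miR-9 and of miR-9-3p were found in no other listed sequence. The seed of oan-miR-9-3p was shared with 1 predicted candidate, PC-3p-39548, which had 25 reads in all.

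The pig sequence and the platypus sequence of the 3p arm are set against each other next, with the bases that differ in capitals.
miR-9-3p: ataaagctagaTaaccgaaAgt
oan-miR-9-3p: taaagctagaGaaccgaaTgt
The platypus form begins 1 base later, and 19 of 21 compared bases were the same. Counted from 1 at the 5′ end of miR-9-3p, the differences were T12G and A20T. Neither lies in the seed as such, but the later start shifts the seed of the platypus form by 1 base.

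The pig hairpins carry both arms, and the 3 copies are shown with the 5p and the 3p arm in capitals because they differ only outside the arms.
ssc-mir-9-1: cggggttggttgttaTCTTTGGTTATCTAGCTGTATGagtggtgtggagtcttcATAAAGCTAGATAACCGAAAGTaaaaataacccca
ssc-mir-9-2: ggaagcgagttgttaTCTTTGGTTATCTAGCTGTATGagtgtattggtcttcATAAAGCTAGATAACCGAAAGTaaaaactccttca
ssc-mir-9-3: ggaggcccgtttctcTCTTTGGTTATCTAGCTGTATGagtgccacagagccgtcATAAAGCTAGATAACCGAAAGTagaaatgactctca
The files give their positions as 102543210 to 102543298 on the minus strand for ssc-mir-9-1, 98744572 to 98744658 on the minus strand for ssc-mir-9-2, and 59924188 to 59924277 on the plus strand for ssc-mir-9-3. The files tie these positions to numeric sequence identifiers, which were not matched to chromosomes here, and do not name the genome build, and gene annotation of that build was not used here. In every copy the 5p arm started at base 16 of the hairpin. The arms were 17 bases apart in ssc-mir-9-1 and ssc-mir-9-3 and 15 bases apart in ssc-mir-9-2. The folding energies listed in the files were close to each other, at -41.7 kcal/mol for ssc-mir-9-1, -40.1 kcal/mol for ssc-mir-9-2 and -41.1 kcal/mol for ssc-mir-9-3.

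Because the arms are identical in the 3 copies, a read that stays within an arm cannot show which copy it came from. Only a read past the arm could, since the base before the 5p arm is C in ssc-mir-9-3 and A in the others. The authors' pipeline divided the 5p reads almost evenly between the copies, with 1796.33 reads at ssc-mir-9-3 and 1794.33 at each of the others at 63 d. For miR-9-3p the 63 d reads were 115.33 at ssc-mir-9-3 and 118.33 at each of the others. Reads of the 3 copies were therefore added, and levels per copy were not compared.

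The 5p arm was the main product of miR-9 at each age. ssc-miR-9 had 5385 reads in the 63 d library, 17282 in the 98 d library and 13411 in the 161 d library. The files held 1464699, 2418187 and 2242716 reads in all at 63, 98 and 161 d, so these counts were divided by the file total and given per 1000000 reads (RPM). On that scale ssc-miR-9 stood at 3677 RPM (interval 3579 to 3776) at the youngest age, 7147 RPM (7041 to 7254) at the middle age and 5980 RPM (5879 to 6082) at the oldest. On this scale it was lowest at 63 d and highest at 98 d, and the counting intervals of the 3 libraries did not overlap. By level it ranked 31 of 801 names with reads at 63 d, 24 of 915 at 98 d and 23 of 867 at 161 d.

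The 3p arm of the pig hairpins had the same order of ages at a lower level. miR-9-3p had 352, 952 and 757 reads in the 63, 98 and 161 d libraries, or 240 RPM (216 to 267), 394 RPM (369 to 420) and 338 RPM (314 to 363). The counting intervals of the 3 libraries did not overlap, though those of 98 and 161 d lay close to each other.

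The platypus-named form was listed at levels near those of the pig 3p arm. oan-miR-9-3p had 308, 987 and 754 reads in the order of age, or 210 RPM (188 to 235), 408 RPM (383 to 434) and 336 RPM (313 to 361). On this scale, too, 63 d was lowest and 98 d highest, and no intervals overlapped. It ranked 150 of 801 names at 63 d, and 116 at 98 d as well as at 161 d.

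**Figure D1:**
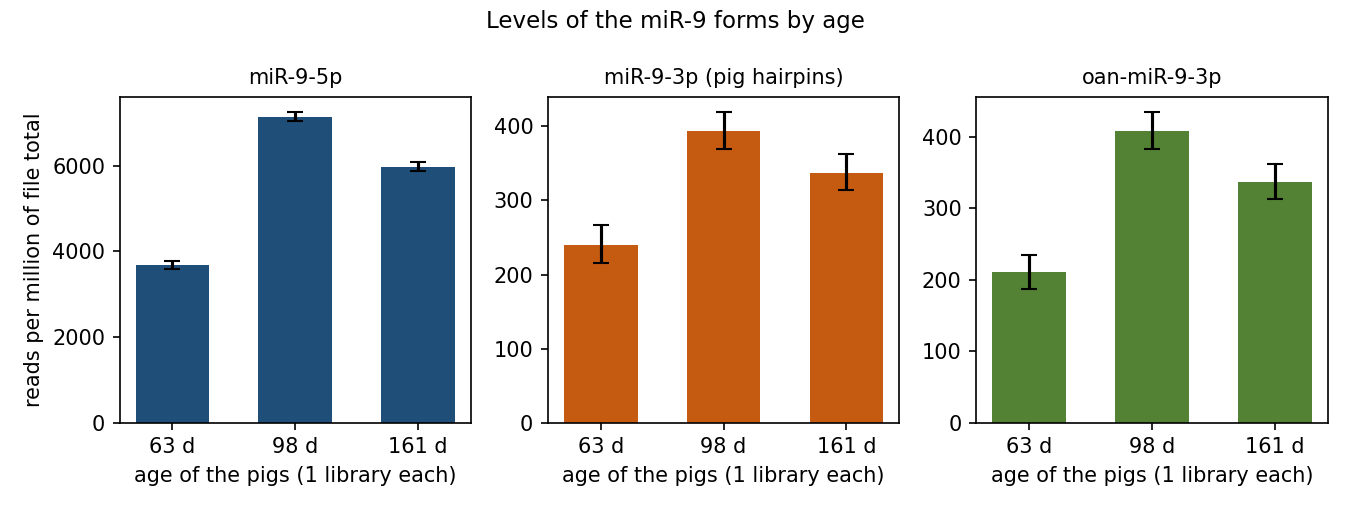
RPM of the file total (bars, from 0) of miR-9-5p, of miR-9-3p summed over the pig hairpins and of oan-miR-9-3p, by age, with 95% exact intervals for counting error and 1 library per age. On this scale each form was lowest at 63 d and highest at 98 d, with miR-9-5p at 3677, 7147 and 5980 RPM, whereas with DESeq2 size factors 161 d was highest.

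Nearly all reads of oan-miR-9-3p were in a class that the authors' pipeline keeps for sequences that match a miRBase hairpin of another species, here oan-mir-9-1, but not the pig genome. Shortened forms that did match the pig genome, at a pair of places without a hairpin, made up the rest, with 5 reads at 98 d, 8 reads at 161 d and none at 63 d. At 63 d and 98 d the files list the unmapped form on 2 rows with the reads halved, and at 161 d on 1 row. In this class, oan-miR-9-3p ranked 17 of 209 names at 63 d, 9 of 268 at 98 d and 9 of 232 at 161 d. The class as a whole held 4.91%, 4.0% and 5.04% of all reads at 63, 98 and 161 d.

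The platypus hairpin in the files is 122 bases long and holds the 22-base ssc-miR-9 unchanged, so 5p reads cannot be divided between pig and platypus hairpins by sequence. It does not hold miR-9-3p. Reads of oan-miR-9-3p without a mapping error numbered 238 at 63 d, 712 at 98 d and 580 at 161 d. Reads with an error made up 22.7%, 27.9% and 23.1% of the form at 63, 98 and 161 d. For ssc-miR-9 these shares were 19.1%, 19.9% and 19.4%, and for miR-9-3p 14.2%, 19.3% and 15.7%. Over all listed reads, errors stood in 17.2%, 18.5% and 17.6% in the order of age. Where the oan-miR-9-3p reads came from was not tested.

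The last name, rno-miR-9b-5p, had 1 read at 98 d, divided between the strands opposite ssc-mir-9-1 and ssc-mir-9-2. It had 0 reads at 63 d and at 161 d, which at 3 counts allows up to 2.05 RPM and 1.34 RPM. At this depth its presence was not detectable beyond that 1 read.

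The ends of the strands were described by the representative read, the 1 sequence that the files print for a row, with its copies. For ssc-miR-9 the representative read was 1 base longer than the reference at 63 d and 98 d and 1 base shorter at 161 d.
ssc-miR-9 at 63 d and 98 d: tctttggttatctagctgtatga
ssc-miR-9 at 161 d: tctttggttatctagctgtat
The longer read had 1576 copies at 63 d and 5030 copies at 98 d, and the shorter one 4206 copies at 161 d. These were 29.3%, 29.1% and 31.4% of the reads of the arm, so the representative read was no majority at any age. miR-9-3p was more uniform, with the same 22-base representative read at each age and 61.4%, 54.2% and 52.2% of its reads in that form. For oan-miR-9-3p the representative read was the 21-base reference at 63 d, with 78 copies, and a form with 1 more base at 98 d and 161 d, with 255 and 212 copies. The 5′ end, and with it the seed, was the same in all representative reads of a form at the 3 ages.

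The question between ages was how the profile of this muscle changed as the pigs grew. From 63 to 98 d the level of ssc-miR-9 went from 3677 to 7147 RPM, a fold change of 1.94 (1.89 to 2.01). miR-9-3p changed by 1.64-fold (1.45 to 1.86) and oan-miR-9-3p by 1.94-fold (1.71 to 2.21). Of the 6 names, 5 had at least 10 reads in 1 of the 2 libraries, and 0 of these 5 had a fold change above 2 or below 0.5. Among them bta-miR-9-3p, mmu-miR-9-3p and mdo-miR-9a-3p carry 1 sequence, so they are not separate results. Over all names with at least 10 reads, 23.6% had such a fold change, 15.7% upwards and 7.93% downwards. This share includes names at 0 in 1 library, and it was 20.4% over names listed in both.

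From 98 to 161 d the level of ssc-miR-9 went from 7147 to 5980 RPM, a fold change of 0.837 (0.818 to 0.856). The values were 0.857 (0.778 to 0.944) for miR-9-3p and 0.824 (0.748 to 0.907) for oan-miR-9-3p. None of the 5 names with 10 reads passed the limits, against 24.2% of all names, 6.06% upwards and 18.2% downwards. Over names listed in both libraries the share was 21.2%. From 63 to 161 d the fold change was 1.63 (1.58 to 1.68) for ssc-miR-9, 1.40 (1.24 to 1.60) for miR-9-3p and 1.60 (1.40 to 1.83) for oan-miR-9-3p. Again 0 of 5 names passed, against 31.2% of all names, 11.4% upwards and 19.8% downwards, and 28.4% of the names listed in both libraries.

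miR-133a rows took 43.4%, 36.3% and 44.1% of all reads in the order of age, so a fold change on the RPM scale also moves with that share. Over the names listed in both libraries, the median log2 fold change came to 0.20 from 63 to 98 d (520 names), -0.31 from 98 to 161 d (524 names) and -0.14 from 63 to 161 d (496 names). Relative to this median, ssc-miR-9 was higher by 0.76 on the log2 scale from 63 to 98 d, miR-9-3p by 0.51 and oan-miR-9-3p by 0.76. From 98 to 161 d the log2 values relative to the median were 0.05, 0.09 and 0.03 in the same order. From 63 to 161 d they were 0.85, 0.63 and 0.82. The rank among names does not depend on the scaling: 15.2% of names had a larger fold change than ssc-miR-9 from 63 to 98 d, 45.0% from 98 to 161 d and 15.9% from 63 to 161 d. Relative to the other miRNAs, the miR-9 forms thus stood higher at 98 d than at 63 d, and from 98 to 161 d they stayed near the median change.

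**Figure D2:**
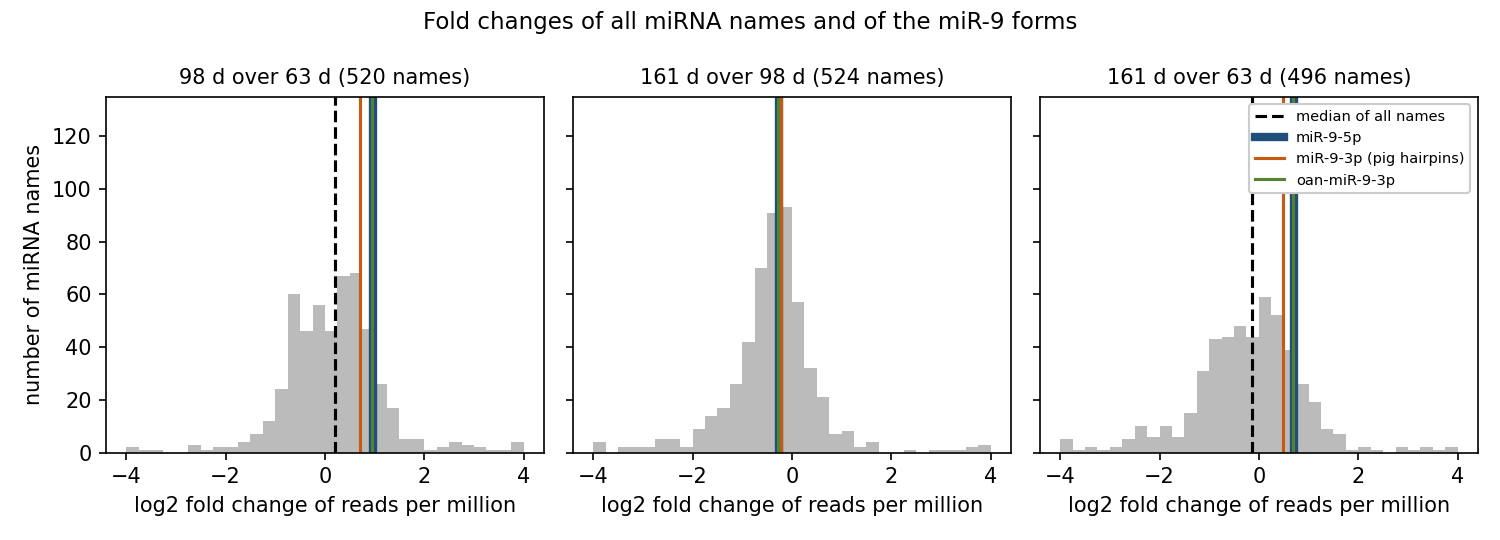
Histograms of the log2 fold change of RPM for the miRNA names listed in both libraries with at least 10 reads in 1 of them, for each pair of ages, with vertical lines for the median and the miR-9 forms and values beyond 4 drawn in the end bins. The miR-9 forms lie to the right of the median in the pairs with 63 d, and at the median from 98 to 161 d.

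The direction from 98 to 161 d changed with the scaling. For ssc-miR-9 this fold change was 0.837 on the file total and 1.06 with DESeq2's size factors, for miR-9-3p 0.857 and 1.09, and for oan-miR-9-3p 0.824 and 1.05. In the pairs with 63 d every scaling tried left the 3 forms higher at the later age.

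**Figure D3:**
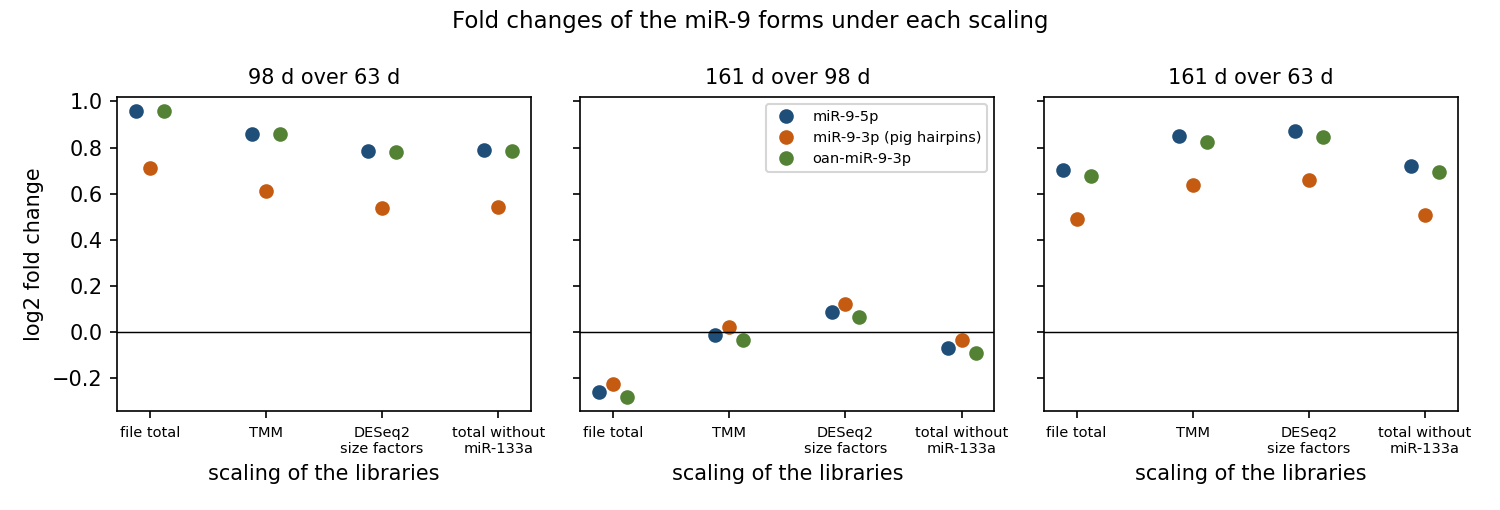
Log2 fold changes of the miR-9 forms for each pair of ages (panels) under the file total, TMM factors, DESeq2 size factors and the total without miR-133a, with 1 library per age and a line at 0. All points of the pairs with 63 d lie above 0, and those from 98 to 161 d lie on both sides of it.

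Within a library the scaling cancels, so the forms were also compared by their ratios. At 63 d there were 15.3 reads of ssc-miR-9 for each read of miR-9-3p (13.7 to 17.1). The ratio was 18.2 (17.0 to 19.4) in the 98 d library and 17.7 (16.5 to 19.1) in the 161 d library. The ratio at 98 d was 1.19 times that at 63 d (1.04 to 1.34), and at 161 d 1.16 times that at 63 d (1.01 to 1.32), both beyond counting error, while 161 d against 98 d gave 0.976 (0.884 to 1.08). By copies of the representative read alone the ratio was 7.30, 9.75 and 10.7 at 63, 98 and 161 d, and with oan-miR-9-3p added to the 3p reads it was 8.16, 8.91 and 8.88. No interval was computed for these alternative ratios, so whether they differ between ages beyond counting error was not tested. The 5p share of the reads of both arms came to 93.9% (93.2 to 94.5), 94.8% (94.5 to 95.1) and 94.7% (94.3 to 95.02) in the order of age.

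Against oan-miR-9-3p the 5p ratio came to 17.5 (15.6 to 19.7), 17.5 (16.4 to 18.7) and 17.8 (16.5 to 19.2) in the same order, and no pair of ages differed beyond counting error, with 1.00 (0.875 to 1.14) for 98 d over 63 d. The reads of oan-miR-9-3p per read of miR-9-3p were 0.875 (0.749 to 1.02), 1.04 (0.948 to 1.14) and 0.996 (0.899 to 1.10) at 63, 98 and 161 d. Each of these intervals included 1, so over all reads an unequal number of the 2 kinds of 3p strand was not detectable. This near equality held for all reads only. Without mapping errors, oan-miR-9-3p and miR-9-3p had 238 and 302 reads at 63 d, 712 and 768 at 98 d, and 580 and 638 at 161 d. Copies of the representative read were 78 and 216, 255 and 516, and 212 and 395 in the order of age. No interval was computed for the ratios of these counts.

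**Figure D4:**
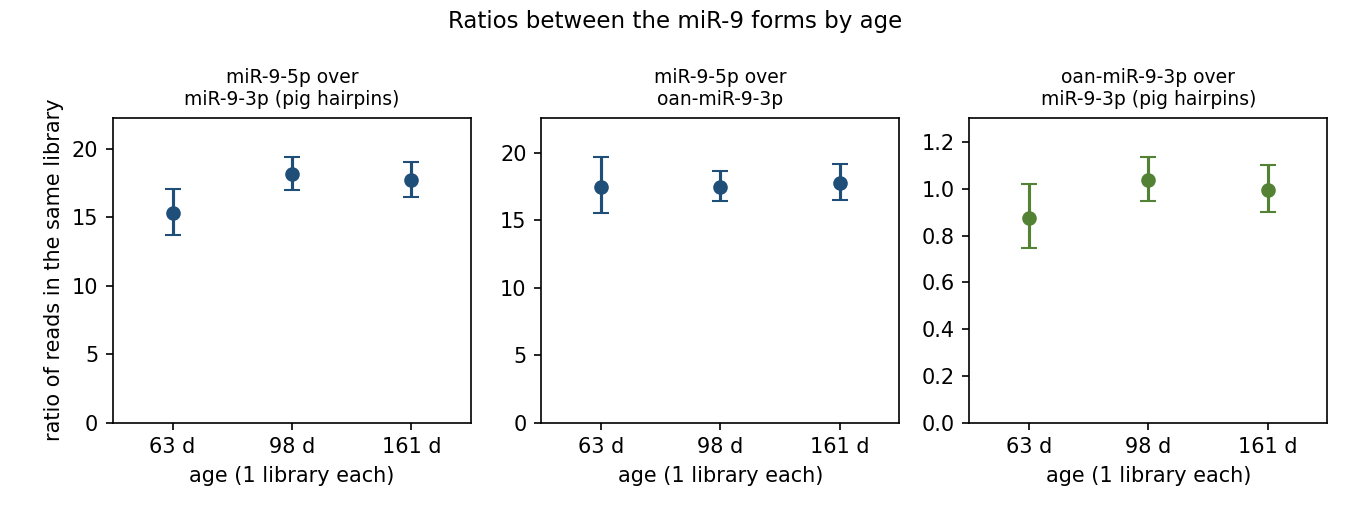
Ratios of reads between miR-9 forms in the same library, by age, on axes from 0, with 95% exact intervals for counting error. The ratio of miR-9-5p to miR-9-3p lay between 15.3 and 18.2 and that to oan-miR-9-3p between 17.5 and 17.8. The ratio of the 2 kinds of 3p strand lay near 1 when all reads were counted.

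The use of the 3p arm was read beside the other pig hairpins with both arms listed and at least 100 reads in each library. In the 112 other hairpins, the less abundant arm had a median of 1.67% of the reads at 63 d (quartiles 0.227% and 11.6%), 1.13% at 98 d (0.239% and 9.07%) and 1.12% at 161 d (0.253% and 8.58%). In the 3 miR-9 hairpins it had 6.03% to 6.19% at 63 d, 5.18% to 5.24% at 98 d and 5.23% to 5.40% at 161 d. These hairpins share the same divided reads, so they give 1 measurement and the range is no spread between copies. The minor arm of miR-9 was thus above the median of the other hairpins and inside their quartiles at each age.

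The pattern of ssc-miR-9 over the ages was compared with that of the 222 other known names that had at least 100 reads in each library. Likeness was the Euclidean distance between log2 RPM values centred on each name's own mean over the 3 libraries, which leaves few degrees of freedom. The nearest were ssc-miR-151-5p at 0.028, ssc-miR-218b at 0.064, ssc-miR-374a-3p at 0.065, ssc-miR-205 at 0.087 and ssc-miR-365-3p at 0.092, against a median distance of 0.761. oan-miR-9-3p, itself a member, lay at 0.019.

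The nearest, ssc-miR-151-5p, stood at 2572 RPM at 63 d, 4937 RPM at 98 d and 4246 RPM at 161 d. ssc-miR-218b, of a family known from motor neurons, stood at 165, 326 and 285 RPM. ssc-miR-205, known from epithelia, stood at 164, 304 and 245 RPM. On the file total all 5 were highest at 98 d and lowest at 63 d, as were 69 of the 222 names (31.1%), but with DESeq2 size factors 0 of the 5 and 35 of the 222 names (15.8%) had that order. The 5 names were lowest at 63 d under every scaling tried, and their fold changes from 98 to 161 d ran from 0.807 to 0.915 on the file total and from 1.02 to 1.16 with DESeq2 size factors, beside 0.837 and 1.06 for ssc-miR-9. Because the 5 names were picked as nearest on these same values, their likeness to ssc-miR-9 follows from the choice. A scaling changes all names of a library by the same factor, so it cannot part them from ssc-miR-9.

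**Figure D5:**
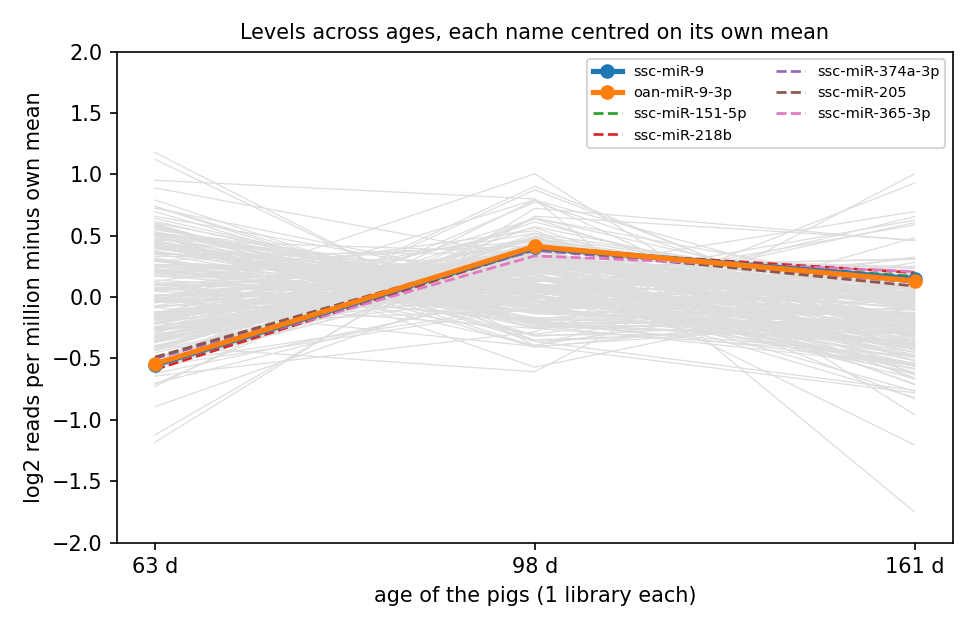
Log2 RPM minus each name's own mean over the 3 libraries, by age, for ssc-miR-9 and oan-miR-9-3p (thick lines), the 5 nearest other names (dashed) and all names with at least 100 reads in each library (grey). The coloured lines lie close together, lowest at 63 d and, on this scale though not with DESeq2 size factors, highest at 98 d. The dashed names were picked for this likeness.

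The labelled tissue was checked on its defining miRNAs. ssc-miR-133a-3p stood at 432681, 361663 and 439710 RPM and ssc-miR-1 at 12377, 31642 and 21259 RPM at 63, 98 and 161 d, and all 6 muscle miRNA numbers in the list were present. The summed muscle list held 451479, 401902 and 466904 RPM at these ages, most of it ssc-miR-133a-3p. From 63 to 98 d the ratio of the sums was 0.890. Its 12 names had a median fold change of 1.53, with 4 above 2 and 0 below 0.5. These 4 were ssc-miR-208b and ssc-miR-1, bta-miR-1 and mml-miR-1-1-5p, which are all names of miR-1 and not separate miRNAs. Among all names, 15.7% were above 2 and 7.93% below 0.5. From 98 to 161 d the median was 0.767, with 0 above 2 and 1 below 0.5, beside 6.06% and 18.2% of all names. From 63 to 161 d the median was 1.23 and none passed, beside 11.4% and 19.8% of all names.

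Since miR-9 is known from nervous tissue, other miRNAs of that tissue were read beside it from a list of 16 miRNA numbers, 14 of which were listed. The list summed to 8668 RPM at 63 d, 11053 RPM at 98 d and 8023 RPM at 161 d, a ratio of 1.28 from 63 to 98 d and 0.726 from 98 to 161 d. With DESeq2 size factors these ratios were 1.13 and 0.921. From 63 to 161 d the ratio was 0.926 on the file total and 1.04 with DESeq2 size factors. Most of the summed level was ssc-miR-128, also known from muscle, at 5903, 6870 and 4374 RPM. ssc-miR-9 was below ssc-miR-128 at 63 d and above each member of the list at 98 d and 161 d. ssc-miR-124a, a defining miRNA of neurons, was present at 160, 204 and 235 RPM, and ssc-miR-7 stood at 605, 971 and 807 RPM.

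From 63 to 98 d, 3 of 20 names of the nervous list had a fold change above 2 and 1 had one below 0.5, beside 15.7% and 7.93% of all names. Of these 4, hsa-miR-7-1-3p had a fold change of 2.40 and eca-miR-129a-3p one of 2.91 on 2.5 and 12 reads. The others, mmu-miR-153-5p and mdo-miR-153-1-5p, were names of the 5p arm of miR-153 that were listed at 0 in one of the libraries, since the files do not use the same name for an arm at each age. The median fold change of the list was 1.47, below the 1.94 of ssc-miR-9. From 98 to 161 d none of 19 names passed, beside 6.06% of all names above 2 and 18.2% below 0.5. The median was 0.844, beside 0.837 for ssc-miR-9. From 63 to 161 d, 1 of 18 was above 2 and 1 below 0.5, beside 11.4% and 19.8% of all names. Both were these names of miR-153, and the median was 1.29 beside 1.63 for ssc-miR-9.

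Markers of other cells were also read. The blood list summed to 2080, 3283 and 2306 RPM, the endothelial miR-126 to 5834, 9769 and 6760 RPM, and the epithelial list to 548, 921 and 726 RPM at 63, 98 and 161 d. The ratios of these sums from 63 to 98 d were 1.58, 1.67 and 1.68, and from 98 to 161 d 0.702, 0.692 and 0.787. With DESeq2 size factors the latter were 0.892, 0.878 and 0.999, beside 1.06 for ssc-miR-9. From 63 to 98 d, 15.7% of all names were above 2 and 7.93% below 0.5. In these lists, 2 of 9 blood names, 0 of 2 endothelial names and 5 of 9 epithelial names were above 2, and 1 epithelial name was below 0.5. Of these 6 epithelial names, bta-miR-200a, hsa-miR-200a-3p and mdo-miR-200a-3p were names of miR-200a listed at 0 in one of the libraries, and bta-miR-141 rested on 2 and 16 reads. Of the 2 blood names, hsa-miR-223-5p rested on 1 read at 63 d and 12 reads at 98 d. The part of nervous tissue, blood, vessels or epithelium in the level of miR-9 was not tested.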

How the data were processed

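Small RNA of the psoas major was analysed from 3 pooled libraries, 1 per age, with the ages (63, 98 and 161 d) taken from the sample labels. Per the file headers and the study's methods, the authors used the ACGT101-miR pipeline, which removed adapters, other RNA classes and repeats and mapped reads to miRBase hairpins and the pig genome. The build is not given in the sources used here. The deposited files hold expected counts, the reads of all isoforms of an arm at a hairpin, in which a read of several hairpins is divided between them, also split by mapping error. They also hold the count of copies of the representative read, without normalization. Such division makes levels per hairpin copy uninterpretable, so rows of a name were added.

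Reads were divided by the file total (RPM). Fold changes are ratios of RPM, with exact conditional Clopper-Pearson intervals at 95%, and no test or p-value was computed. Changes of an arm ratio carry exact conditional odds-ratio intervals. Rounding to whole reads was used for the intervals and the scaling factors only. Names with at least 10 reads in 1 of the 2 libraries formed the background, where a name at 0 was set to 3 reads, the floor, which is 2.05, 1.24 and 1.34 RPM at 63, 98 and 161 d. A fold change above 2 or below 0.5 was counted as passing. Predicted candidates were left out of the background.

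The members and lists were chosen with earlier results of these data known. Named were all members, the 5 names nearest to ssc-miR-9, examples of each marker list, and any name that shared a seed. Alternatives were TMM (edgeR 4.0.16), DESeq2 1.42.0 size factors, the total without miR-133a, 1 hairpin row, reads without error, copies of the representative read, a pseudocount of 1 RPM and other minimums. Keeping names listed in both libraries, adding oan-miR-9-3p to the 3p arm, treating it as its own form, and rescaling the order of ages and the marker sums were chosen after seeing the data. Python 3.11.15, numpy 2.4.6, pandas 2.3.3, scipy 1.17.1, matplotlib 3.10.9 and R 4.3.3 were used. The fold step was tested on simulated counts with counting error only, which checks the calculation and not variation between pigs or libraries.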

Additional observations from a re-analysis of the deposited data

How the results depend on the processing

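No paired analysis was possible because each age had 1 library. For the same reason no library could be left out of an age. Of 141 recomputed values, marker sums included, 68 stayed within the counting interval of the reported value, or within 1.5 times of a reported count, and 73 moved further. The fold change of ssc-miR-9 was 1.81 with TMM, 1.72 with DESeq2 size factors and 1.73 without miR-133a from 63 to 98 d, and 0.993, 1.06 and 0.954 from 98 to 161 d. From 63 to 161 d it was 1.80 with TMM and 1.83 with DESeq2. Copies of the representative read gave 0.902 from 98 to 161 d and 1.74 from 63 to 161 d, where that read differs between ages. For miR-9-3p from 98 to 161 d, TMM gave 1.02, DESeq2 1.09 and the total without miR-133a 0.977, and copies gave 1.45 from 63 to 98 d and 1.19 from 63 to 161 d. For oan-miR-9-3p from 98 to 161 d, the same scalings gave 0.977, 1.05 and 0.939. Its single row with most reads gave 1.64 from 98 to 161 d and 3.16 from 63 to 161 d, because its reads stand halved on 2 rows at 63 d and 98 d and on 1 row at 161 d. The ratio of 5p to 3p reads was 7.30, 9.75 and 10.7 by copies at 63, 98 and 161 d, and 8.16, 8.91 and 8.88 with oan-miR-9-3p added to the 3p reads. Names past a fold change of 2 numbered 128, 132 and 161 for 63 to 98 d, 98 to 161 d and 63 to 161 d. They were 365, 361 and 345 with no minimum beyond 1 read, and 46, 47 and 66 with a minimum of 100 reads, which changes how many names are compared. Depth limits the 3p forms most, since at 63 d they rest on 352 and 308 reads.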
